A study of Homo sapiens with 5 samples.

Results

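Transfection with a control siRNA, which has no named target, is the reference that knockdown experiments rest on, and the comparison described here asks how a control-transfected culture differed from an untransfected one. WI-38 cells are human diploid lung fibroblasts with a limited lifespan, counted in population doublings (PDL). The 2 libraries compared are both total RNA of WI-38 cells at PDL 15, 1 transfected with control siRNA and 1 collected with no treatment named in its label. They are 2 of 5 libraries in all. The others are PDL 15 cells given siRNA against AUF1, PDL 15 cells given siRNA against HuR, and untreated cells at PDL 55. AUF1 and HuR are proteins that bind AU-rich stretches of mRNA. Each group has 1 library, so nothing here was replicated, no p-value can be given, and each count compares 2 libraries rather than 2 conditions. Transfection, the culture and the library cannot be told apart, nor can fewer cells with a transcript and less of it per cell. The sources used here do not give the sequence of the control siRNA, its dose or the time after transfection.

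Levels are FPKM (fragments per kilobase of a transcript, scaled to the library's total), summed over the annotated transcripts of a gene. Of 49766 genes with an annotated transcript, 7792 averaged an FPKM of 5 or more across the libraries. Of these, 518 with a failed estimate were set aside, as were 123 small RNA genes and genes whose longest transcript was under 200 nt, which left 7151. Differences are log2 ratios of FPKM + 1, relative to the median of the 7151 genes. That median was -0.54 for control siRNA against PDL 15, so a gene at a ratio of 0 had a lower deposited FPKM in the control library. A gene is called at a 2-fold ratio, a log2 ratio of 1.

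The control library stood apart from the others in its make-up. Its coverage per unit of FPKM, which scales with depth, was 0.300, against 1.14 to 1.29 in the other 4 libraries. Transcripts assembled from the reads held 80.4% of its coverage times length, against 25.1% to 29% elsewhere, and those under 100 nt held 73.9%, against 4.09% to 8.18%. Because transcripts can exchange reads in such an estimate, each gene was also summed with the assembled transcripts added and with each transcript weighted by its length. A difference is called firm below when it was 2-fold under all 3 ways of summing. For a gene with 1 annotated transcript and no assembled one, the 3 ratios differ only by the shift of the median. Firm then adds nothing to the call, as for MT2A and KRTAP2-3. The 3 ratios also differ by no more than this shift for HIST2H2AC, HIST1H2AI, HIST1H2AD and RPL7A. The part of depth and library make-up in the results was not tested.

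Each siRNA target was lowest in the library of its own siRNA, though for HuR by little. HNRNPD, the gene of AUF1 (hg19 chromosome 4, 83273651 to 83295656), had an FPKM of 119 at PDL 15, 61.2 with control siRNA, 20.3 with AUF1 siRNA and 120 with HuR siRNA. ELAVL1, the gene of HuR (hg19 chromosome 19, 8023458 to 8070529), had 16.7, 11.8, 17.7 and 9.72 in the same order. HNRNPD was thus lowest with AUF1 siRNA and ELAVL1 lowest with HuR siRNA. The control library lay below PDL 15 for both on the deposited scale. Relative to the median gene, its log2 ratios were -0.41 for HNRNPD and 0.07 for ELAVL1. Of 12 fibroblast markers, 8 reached an FPKM of 1 in the control library, COL1A1 at 945 and FN1 at 291 among them, and 4 were listed at 0, among them VIM, which had transcripts with failed estimates. Their summed FPKM was 5476 at PDL 15, 1703 with control siRNA, 9812 with AUF1 siRNA and 4141 with HuR siRNA. These sums rest in large part on genes listed at 0. COL1A1 is listed at 0 in the HuR siRNA library, where PDL 15 has 1702 and the AUF1 siRNA library 4959. VIM, at 0 in the control library, has 1534 in the PDL 15 library and 2827 in that of AUF1 siRNA. The sums therefore cannot compare marker levels between libraries. Of the 9 measured, 5 were lower and 1 higher with control siRNA than at PDL 15, against 11.2% and 12.1% of all genes tested. Under all 3 ways of summing, 3 were lower and 1 higher, against 5.61% and 7.06% of all genes. The median log2 ratio of the 9 was -1.50, and -0.58 with assembled transcripts. The 3 are the matrix genes COL3A1, DCN and LUM. The part of these markers in the results was not tested. Of 9 epithelial markers, 3 reached an FPKM of 1 and none passed the filter, and of 8 blood markers 1 reached it and none passed.

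Against PDL 15, 868 genes were at least 2-fold higher with control siRNA (12.1% of genes tested) and 800 were at least 2-fold lower (11.2%). On the deposited scale, with no shift of the median, the same comparison gave 415 higher and 1886 lower. The 95% bounds that the authors' tables give for each estimate did not overlap for 680 of the 868 and 792 of the 800, and these bounds describe an estimate within 1 library. With assembled transcripts added, 621 of the higher genes (8.68%) and 505 of the lower (7.06%) were still 2-fold apart. The difference was firm for 505 higher genes (7.06%) and 401 lower genes (5.61%). For scale, 20.3% of genes were 2-fold apart in either direction between AUF1 siRNA and PDL 15, 18.2% between HuR siRNA and PDL 15, and 12.7% between the AUF1 and HuR siRNA libraries, against 23.3% for control siRNA and PDL 15.

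The AUF1 and HuR siRNA libraries divide these genes. A gene is called shared when all 3 transfected libraries were at least 2-fold from PDL 15 in the same direction, and control-only when the control library was at least 2-fold from PDL 15, AUF1 siRNA and HuR siRNA alike. There were 275 shared higher genes (3.85% of genes tested) and 117 shared lower genes (1.64%), of which 119 (1.66%) and 74 (1.03%) were in the class under all 3 ways of summing. There were 211 control-only higher genes (2.95%) and 303 control-only lower genes (4.24%), of which 135 (1.89%) and 90 (1.26%) were firm. A gene can be in both classes, as 17 higher and 4 lower genes were, and 399 higher and 384 lower genes were in neither. The 3 comparisons with PDL 15 share that library, so a gene that is unusual in it falls in the shared class, and a gene that is unusual in the control library falls in the control-only class. A gene can also pass the filter on mean FPKM through 1 library alone. This holds, through the control library, for 91 of the 868 higher genes, 12 of the 275 shared higher and 65 of the 211 control-only higher ones. Through PDL 15 it holds for 78 of the 800 lower genes, 28 of the 117 shared lower and 17 of the 303 control-only lower ones. Such a gene had to differ, so these counts are no support for the classes. Among genes named below it holds for ADAM22, CCDC148, CDCA8, HIST1H2AD, KIFC1, NELL1, OPCML, PRPF19 and TICAM1 through the control library, and for FBLN2, NFKBIA, SIX4 and TGFBR1 through PDL 15. Counted the same way as the control-only class, AUF1 siRNA lay 2-fold above the other 3 PDL 15 libraries for 63 genes and below them for 143, and HuR siRNA for 55 and 143.

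Fibroblasts answer growth factors, stress and wounding with a transient wave of immediate early genes, among them the subunits of the AP-1 transcription factor, and AP-1 is known to drive secreted factors of wound repair such as the plasminogen activator system. Metallothioneins are small cysteine-rich proteins that bind zinc and copper and are induced through metal response elements before their start sites. Among the firm shared higher genes were members of both groups, and the 250 bases before the start are shown for 3 of them with a RefSeq promoter and matches to the motif that their group is known for (RefSeq, GRCh38.p14). Capitals mark matches, on either strand, to the metal response element core TGCNCNC in MT2A and to the AP-1 site TGANTCA in PLAUR and SERPINB2.
MT2A, chr16:56608334-56608583, plus strand: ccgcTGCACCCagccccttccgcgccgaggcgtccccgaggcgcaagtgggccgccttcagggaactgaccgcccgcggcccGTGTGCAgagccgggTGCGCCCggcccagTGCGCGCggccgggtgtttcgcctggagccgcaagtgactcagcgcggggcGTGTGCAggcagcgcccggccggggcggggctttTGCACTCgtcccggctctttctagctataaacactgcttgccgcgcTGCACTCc
PLAUR, chr19:43670170-43670419, minus strand: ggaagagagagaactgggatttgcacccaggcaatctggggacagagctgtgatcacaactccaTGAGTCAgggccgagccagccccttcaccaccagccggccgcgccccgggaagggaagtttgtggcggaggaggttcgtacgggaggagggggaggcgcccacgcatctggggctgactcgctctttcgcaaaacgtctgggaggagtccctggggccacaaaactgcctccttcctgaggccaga
SERPINB2, chr18:63887455-63887704, plus strand: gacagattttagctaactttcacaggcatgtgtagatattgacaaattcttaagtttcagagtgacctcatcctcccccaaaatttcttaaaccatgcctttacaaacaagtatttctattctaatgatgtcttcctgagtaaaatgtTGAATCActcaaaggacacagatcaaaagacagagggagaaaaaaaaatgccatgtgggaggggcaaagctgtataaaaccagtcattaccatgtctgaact
The MT2A window holds 7 matches and the PLAUR and SERPINB2 windows 1 each. The window of DKK1, another firm shared higher gene, was also searched for the AP-1 site and holds 0 matches. The MT2A window also holds the AP-1 letters tgactca, left in lower case here. The metal response element core is short, and 48.5% of all 27195 RefSeq promoter windows of this length hold it, as do 56.9% of the windows of the 72 firm shared higher coding genes that have one and 56.4% of the 5084 windows of genes tested. The AP-1 site is in 6.55% of all windows, in 4.07% of those of genes tested and in 5 of those 72 (6.94%). It is about as common in the other firm classes of coding genes. The shares are 6.06% for shared lower, 6.78% for control-only higher and 7.89% for control-only lower genes. The matches are a description of letters and mark no site in use.

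MT2A (hg19 chromosome 16, 56642111 to 56643409) had an FPKM of 38.3 at PDL 15, 293 with control siRNA, 119 with AUF1 siRNA, 227 with HuR siRNA and 350 at PDL 55. All 3 transfected libraries lay above PDL 15, the control library furthest, and PDL 55 lay above them. The authors' bounds were 36.1 to 40.5 at PDL 15 and 279 to 307 with control siRNA. The log2 ratios to PDL 15 were 3.44, 1.86 and 2.62. MT1E, a second metallothionein, had 9.25 at PDL 15, 25.6 with control siRNA, 22.5 with AUF1 siRNA and 17.6 with HuR siRNA. Its log2 ratio was 1.91 with control siRNA, and at 0.95 with HuR siRNA it missed the shared class. Metallothionein genes are near-identical in part, and reads can be split between them.

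FOSL1, an AP-1 subunit (hg19 chromosome 11, 65659490 to 65668044), had an FPKM of 84.8 at PDL 15, 300.3 with control siRNA, 414 with AUF1 siRNA and 242 with HuR siRNA. The lowest transfected library lay well above PDL 15, and the log2 ratios were 2.35, 2.52 and 1.59. Of the 19 measured genes of the immediate early and NF-kB list, 9 were higher with control siRNA and 2 lower, against 12.1% and 11.2% of all genes tested. The difference was firm for 7 and 1 of these, against 7.06% and 5.61% of all genes. The list's median log2 ratio was 0.59, against 0 over all genes tested by construction, and 0.65 with AUF1 siRNA and 0.32 with HuR siRNA. On the deposited scale the median with control siRNA was 0.048. On that scale ZFP36L1, ZFP36, JUN, EGR1, IER3 and DUSP1 lay under the 2-fold line, with ratios of 0.59 to 0.99. ZFP36L1 and ZFP36, proteins that speed the decay of AU-rich mRNAs, had log2 ratios of 1.53 and 1.20. JUN, another AP-1 subunit, EGR1, a zinc finger transcription factor, and IER3, a stress-response gene, had 1.17, 1.17 and 1.12. The 5 lay below the 2-fold line in at least 1 of the other transfected libraries, as with EGR1, whose FPKM was 26.0 at PDL 15, 40.9 with control siRNA, 33.3 with AUF1 siRNA and 32.1 with HuR siRNA. With 1 transcript per gene the ratio of EGR1 was 0.95. DUSP1, a phosphatase that switches off MAP kinases, was in the shared class, with 7.24 at PDL 15 and 11.6, 16.9 and 19.8 in the control, AUF1 and HuR siRNA libraries. It has no value without transcripts of status LOWDATA, which Cufflinks gives where reads are few. NFKBIA, the inhibitor that NF-kB itself induces, was lower, at 3.29 with control siRNA against 12.4 at PDL 15. A pseudocount of 5 left JUN, EGR1, IER3, ZFP36, DUSP1 and NFKBIA under the 2-fold line, at 0.88, 0.97, 0.87, 0.88, 0.85 and -0.66.

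Secreted factors of wound repair and senescence were among the shared higher genes. PLAUR, the urokinase receptor whose promoter is shown above (hg19 chromosome 19, 44150271 to 44174502), had an FPKM of 22.0 at PDL 15, 34.8 with control siRNA, 56.8 with AUF1 siRNA and 83.6 with HuR siRNA. The control library was the closest of the 3 to PDL 15, with a log2 ratio of 1.18, which was 0.64 on the deposited scale and 0.97 with a pseudocount of 5. SERPINB2, an inhibitor of plasminogen activators, had 1.76, 10.1, 19.9 and 10.1, and its ratio turned to -0.39 with 1 transcript per gene. STC1, a secreted glycoprotein hormone, had 16.5, 43.0, 51.1 and 80.5, with no value left without LOWDATA transcripts, and IGFBP7, an insulin-like growth factor binding protein, had 24.6, 54.3, 77.9 and 180. These 4 are among the 5 firm higher members of the 25 measured secreted senescence factors. In all, 7 of the 25 were higher and 4 lower with control siRNA, 11 and 4 with AUF1 siRNA, and 12 and 3 with HuR siRNA. Over all genes tested the shares were 12.1% and 11.2%, 11.2% and 9.02%, and 9.72% and 8.49% in the same order. Of all genes, 7.06% were firm and higher with control siRNA. The list's median was 0.32 with control siRNA, which turns to -0.22 on the deposited scale, 0.53 with AUF1 siRNA and 0.80 with HuR siRNA. Of the lower members, PLAT, the tissue plasminogen activator, was shared, at 130 at PDL 15 and 34.4, 21.6 and 51.2 in the transfected libraries.

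Other shared higher genes, picked from the firm ones after their values were seen, come from several functions. DKK1, a secreted inhibitor of Wnt signalling, had 5.69 at PDL 15 and 21.5, 20.5 and 23.6 in the control, AUF1 and HuR siRNA libraries. The 3 transfected values lie within a narrow range. HMGA1, a chromatin protein, had 146 against 341, 371 and 338, and was as even. CREB3L1, a membrane-bound transcription factor of the secretory pathway, had 39.5 against 128, 158 and 245. SLC16A3, a lactate exporter, had 2.75 against 9.44, 16.8 and 13.4. KRTAP2-3, a keratin-associated protein gene (hg19 chromosome 17, 39215495 to 39216344), had 1.42 against 31.3, 17.9 and 13.5, and its neighbours in the same family, KRTAP2-1 and KRTAP2-2, had log2 ratios of 2.30 and 2.36 with control siRNA. These family members are close copies, so reads can be split between them, and KRTAP2-1 and KRTAP2-2 have no value without LOWDATA transcripts. ID3, an inhibitor of basic helix-loop-helix factors, had 1.61 against 15.0, 8.33 and 5.21.

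Among the 8 shared higher genes with the largest ratios, some rest on 1 short transcript. UTRN, the gene of utrophin, a cytoskeletal anchor protein (hg19 chromosome 6, 144606837 to 145174170), had an FPKM of 24.1 at PDL 15, 404 with control siRNA, 90.6 with AUF1 siRNA and 103 with HuR siRNA, a log2 ratio of 4.55 for control siRNA. A transcript of 354 nt held 96.6% of that control value and was listed at 0 at PDL 15. With transcripts weighted by length the ratio was 0.61, under the 2-fold line. SVIL, the gene of supervillin, which binds actin and myosin, had 5.61, 99.0, 16.9 and 157, with 81.7% of the control value in a transcript of 262 nt, and kept ratios of 1.46 with assembled transcripts and 2.52 by length. FRYL and ZHX3 lost the shared class by length, FRYL at -0.16 with HuR siRNA and ZHX3 at 0.84 with AUF1 siRNA.

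The shared lower genes included secreted and matrix proteins by which fibroblasts are known. C1R, a protease of the complement cascade (hg19 chromosome 12, 7187513 to 7245136), had an FPKM of 105 at PDL 15, 5.62 with control siRNA, 10.9 with AUF1 siRNA, 42.5 with HuR siRNA and 3.53 at PDL 55. POSTN, the gene of periostin, a matrix protein that cross-links collagen (hg19 chromosome 13, 38136720 to 38183563), had 155, 16.9, 12.6, 33.7 and 8.30 in the same order. PDL 15 was the highest library for both. The log2 ratios with control siRNA were -3.46 and -2.59. MFAP4, a microfibril protein, had 196 at PDL 15 and 22.6, 58.3 and 53.9 in the transfected libraries, and OLFML3, a secreted olfactomedin-domain protein, had 67.9 against 6.35, 17.1 and 13.0. DCN, the gene of decorin, a proteoglycan that binds collagen fibrils, had 314 against 58.5, 47.7 and 133. SERPINF1, a secreted inhibitor of blood vessel growth, had 47.4 against 9.46, 17.5 and 17.6.

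Of the 51 measured extracellular matrix genes, 16 were lower and 5 higher with control siRNA, against 11.2% and 12.1% of all genes tested. Of these, 11 of the lower and 0 of the higher were firm, against 5.61% and 7.06% of all genes. With AUF1 siRNA 7 were lower and 6 higher, against 9.02% and 11.2% of all genes. With HuR siRNA 11 were lower and 11 higher, against 8.49% and 9.72%. The list's median was -0.48 with control siRNA, 0.01 with AUF1 siRNA and 0.23 with HuR siRNA. Of the 16, 3 were shared and 6 control-only. COL3A1, the fibrillar type III collagen, had 224 at PDL 15, 38.9 with control siRNA, 44.3 with AUF1 siRNA and 161 with HuR siRNA. Control and AUF1 siRNA lay close together there and HuR siRNA nearer PDL 15. LUM, a proteoglycan related to decorin, had 41.4, 8.47, 11 and 22.9. MMP2, a gelatinase, had 306, 47.3, 253 and 110, and FBLN1, a fibulin of elastic fibres, had 132, 17.7, 70.5 and 51.0. For MMP2 the AUF1 siRNA library was close to PDL 15.

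The shared lower class also held receptors, transcription factors and RNAs of other kinds. TGFBR1, the type I receptor of TGF-beta, had 19.8 at PDL 15 and 4.58, 4.00 and 4.61 in the control, AUF1 and HuR siRNA libraries. SIX4, a homeobox factor, had 13.9 against 3.42, 4.82 and 5.04. SLFN5, of the Schlafen family, had 30.3 against 1.54, 1.42 and 10.8. TENM4, a large transmembrane protein, had 306 against 85.2, 89.7 and 109, and PRSS12, a secreted serine protease, had 136 against 27.7, 31.2 and 29.2. Each of these was lower by a like amount in all 3 libraries except SLFN5, which was higher with HuR siRNA than in the other transfected libraries. With a pseudocount of 5 the control ratios of TGFBR1 and SIX4 were -0.97 and -0.76. TMSB4X, the actin-binding thymosin beta 4, had 446 against 72.5, 54.2 and 129. MALAT1, a nuclear long noncoding RNA, had 1391 at PDL 15 and 256, 142 and 268. Its ratio was -0.72 with 1 transcript per gene, and no value is left without LOWDATA transcripts. ADH5, an alcohol dehydrogenase that clears formaldehyde adducts, had 95.8 against 10.1, 20.4 and 32.3. SGK1, a stress- and steroid-induced kinase, had 22.2 against 1.57, 6.35 and 8.22 and was in both classes. RNF169, which binds damaged chromatin, had 38.4 against 2.54, 3.30 and 3.63, but its ratio was -0.48 when transcripts were weighted by length.

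Genes of cholesterol and fatty acid synthesis, which sterol-sensing transcription factors switch on together, were lower in part. Of 21 measured, 5 were lower and 1 higher with control siRNA, against 11.2% and 12.1% of all genes tested. With AUF1 siRNA 5 were lower and 3 higher, against 9.02% and 11.2% of all genes. With HuR siRNA 8 were lower and 1 higher, against 8.49% and 9.72%. The medians were -0.17, -0.41 and -0.83 in the same order. The 4 lower genes that were firm in the control library, against 5.61% of all genes, were SCD, CYP51A1, FDPS and IDI1. The 250 bases before the start were also searched for the sterol response element TCACNCCAC. None of the 16 genes of this list with a window, these 4 included, holds it (0 matches). This motif is rare, and 0.81% of the windows of genes tested hold it. SCD, the desaturase that makes oleate (hg19 chromosome 10, 102106877 to 102124591), had an FPKM of 161 at PDL 15, 23.7 with control siRNA, 55.1 with AUF1 siRNA and 54.5 with HuR siRNA. CYP51A1, the lanosterol demethylase, had 22.6, 2.32, 8.24 and 3.97, and was shared. Neither SCD nor CYP51A1 has a value without LOWDATA transcripts. FDPS, which makes farnesyl diphosphate, had 88.4, 13.9, 42.2 and 21.1, and IDI1, the isopentenyl diphosphate isomerase, had 21.5, 5.11, 10.7 and 8.52, a control ratio of -1.34, or -0.98 with a pseudocount of 5. For both, AUF1 siRNA did not reach the 2-fold line, with ratios of -0.80 and -0.69.

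Of 70 measured cytosolic ribosomal proteins, 21 were lower with control siRNA, 3 higher and 46 not called, against 11.2% lower and 12.1% higher over all genes tested. Of these, 18 of the lower and 0 of the higher were firm, against 5.61% and 7.06% of all genes. The median log2 ratio was -0.83 with control siRNA, -0.77 with AUF1 siRNA and -0.28 with HuR siRNA, and 29 were lower with AUF1 siRNA, against 9.02% of all genes, and 5 with HuR siRNA, near the 8.49% of all genes. RPS3A and RPL9 were shared, with 288 and 115 at PDL 15, 55.3 and 22.4 with control siRNA, 63.2 and 21.0 with AUF1 siRNA, and 72.2 and 32.9 with HuR siRNA. Of 6 control-only members, RPL7A had 1037 at PDL 15, 140 with control siRNA, 410 with AUF1 siRNA and 560 with HuR siRNA. RPL4 had 623, 94.6, 365 and 445, and RPL5 had 580, 93.8, 271 and 449. These genes have many processed pseudogenes, and reads can be split between a gene and its copies. Of 418 pseudogenes of all kinds that were tested, 26.6% were lower with control siRNA, against 10.4% of the 6127 coding genes. Of 42 translation factors, 6 were lower, near the share of all genes, and 1 was higher, with a median of -0.39. Of these, EEF1A1, which brings aminoacyl-tRNA to the ribosome, had 2890.1 at PDL 15, 697 with control siRNA, 991 with AUF1 siRNA and 1973 with HuR siRNA, and EIF4A2, an initiation helicase, had 199.7, 53, 81.9 and 40.1. EIF3E, a subunit of initiation factor 3, had 189, 55.9, 60.8 and 93.7, and a control ratio of -0.46 with 1 transcript per gene.

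Of 45 measured mitosis genes, 14 were higher and 0 lower with control siRNA, against 12.1% and 11.2% of all genes tested. The difference was firm for 11 of the 14, against 7.06% of all genes that were firm and higher. With AUF1 siRNA 13 were higher and 0 lower, against 11.2% and 9.02% of all genes. With HuR siRNA 3 were higher and 3 lower, no more than the 9.72% and 8.49% of all genes. The medians were 0.40, 0.64 and 0.14, and the first turns to -0.14 on the deposited scale. UBE2C, the ubiquitin carrier of the anaphase-promoting complex, had an FPKM of 13.3 at PDL 15, 62.3 with control siRNA, 20.1 with AUF1 siRNA and 26.9 with HuR siRNA. KIFC1, a minus-end kinesin of the spindle, had 5.09, 21.8, 7.43 and 5.94, and NCAPD2, a condensin subunit, had 8.92, 34.8, 12.7 and 9.44. The control library was the highest in these 3, but KIFC1 passed the filter only through it and had to stand out in it. HuR siRNA was itself above PDL 15 for UBE2C at a log2 ratio of 1.06, and UBE2C had a control ratio of 0.95 with 1 transcript per gene. PTTG1, the gene of securin, which restrains sister chromatid separation (hg19 chromosome 5, 159848829 to 159855748), had 21.1, 110, 38.0 and 47.2, and was in both classes. BIRC5, the gene of survivin, had 4.85, 15.3, 12.6 and 6.19, so that AUF1 siRNA lay near control siRNA. CDCA8, its partner in the chromosomal passenger complex, had 3.79, 12.6, 6.96 and 5.14, and passed the filter only through the control library. Without LOWDATA transcripts the ratios of PTTG1 and CDCA8 turned to -2.81 and -1.74, and with 1 transcript per gene that of CDCA8 was -1.64.

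Replication-dependent histone mRNAs are made in S phase and lack a polyA tail. Of 18 measured, 7 were higher and 1 lower with control siRNA, against 12.1% and 11.2% of all genes tested. Of these, 6 and 1 were firm, against 7.06% and 5.61% of all genes. For HIST2H2AC, HIST1H2AI and HIST1H2AD, named below, firm adds nothing to the call, because the 3 ratios differ only by the shift of the median. With AUF1 siRNA 6 were higher and 1 lower, against 11.2% and 9.02%, and with HuR siRNA 1 and 2, against 9.72% and 8.49%. The median was 0.93 with control siRNA, 0.64 with AUF1 siRNA and -0.24 with HuR siRNA. HIST2H2AC, a histone H2A gene (hg19 chromosome 1, 149858525 to 149858961), had 15.5 at PDL 15, 64.9 with control siRNA, 28.7 with AUF1 siRNA, 8.58 with HuR siRNA and 1.66 at PDL 55. HIST1H2AD had 1.16, 19.4, 3.08 and 1.65 in the 4 libraries at PDL 15, HIST1H2AI had 16.3, 55.4, 30.7 and 10.2, and HIST1H4H had 10.4, 41.4, 14.8 and 9.85. The control library was highest in each of the 4, and AUF1 siRNA came next. HIST1H2AD passed the filter only through the control library, so that it had to stand out in it. Without LOWDATA transcripts HIST1H2AD has no value and the ratio of HIST1H4H was 0.35, against 2.43 with them. Histone genes are near-identical copies, and reads can be split between them. Of 21 S phase genes, 3 were higher and 2 lower with control siRNA, near the shares of all genes. Of 22 glycolysis and hypoxia genes, 6 were higher and 1 lower with control siRNA, against 12.1% and 11.2% of all genes tested. The medians were 0.09 for control siRNA and 0.52 for each of AUF1 and HuR siRNA. The first of these medians turns to -0.45 on the deposited scale and is 0.52 with 1 transcript per gene.

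The largest control-only higher ratios rest on short transcripts at high level. DLG2, a scaffold protein of neuronal synapses (hg19 chromosome 11, 83166055 to 85338966), had an FPKM of 29.5 at PDL 15, 950.2 with control siRNA, 22.5 with AUF1 siRNA and 30.8 with HuR siRNA. A transcript of 417 nt held all of the control value. The log2 ratio was 5.50, and 5.36 with assembled transcripts. A separate annotated gene of 293 nt inside the DLG2 span (hg19 chromosome 11, 85195012 to 85195304) had 71.5, 1388, 68.2 and 96.0 in the same order. Whether the values of DLG2 and of this short gene share reads was not tested. CCDC148 had 3.40, 88.3, 5.05 and 1.75, with the control value in a transcript of 458 nt. NELL1, a secreted protein of bone formation, had 1.03, 51.5, 0.965 and 0.701, with 96.6% of the control value in a transcript of 256 nt. ADAM22, a neuronal receptor without protease activity, had 0.167, 26.7, 0.159 and 0.0708, and PRPF19, a core splicing factor, had 1.25, 30.5, 1.74 and 1.30. All 5 were 2-fold higher under all 3 ways of summing, but the latter 4 passed the filter only through the control library, so that they had to stand out in it. Without LOWDATA transcripts the ratio of NELL1 was 1.58, against 5.23 with them. In the control-only higher class, 34.6% of genes had a leading transcript under 500 nt in the control library, against 18.7% of genes tested and 14.9% of shared higher genes. At PDL 15 the same share was 28% in that class and 18.3% over genes tested.

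DLG2 and NELL1 are very long genes. Of the 142 coding genes that span 500 kb or more, 25.4% were higher and 5.63% lower with control siRNA. With AUF1 siRNA the shares were 9.86% and 15.5%, and with HuR siRNA 12% and 9.15%. Under all 3 ways of summing, 17.6% of the 142 were higher and 2.82% lower with control siRNA. Some of the 142, NELL1 and OPCML among them, passed the filter only through the control library, so they had to stand out in it. How many did so was not counted, so the control library's shares cannot be set evenly beside those of AUF1 and HuR siRNA. From 5 to 500 kb the share higher with control siRNA lay between 9.50% and 13.3%, and under 5 kb it was 17.8%, 15.5% under all 3 ways of summing. In those shortest genes it was 17.0% with AUF1 siRNA and 18.5% with HuR siRNA, close to the control library's share. FHIT, which spans a common fragile site (hg19 chromosome 3, 59735036 to 61237133), had an FPKM of 10.1 at PDL 15, 19.4 with control siRNA, 1.46 with AUF1 siRNA and 1.85 with HuR siRNA. OPCML, a neuronal cell adhesion protein (hg19 chromosome 11, 132284871 to 133402414), had 5.83, 13.6, 1.73 and 4.09, a control ratio of 1.63 that was 0.50 without LOWDATA transcripts and 0.90 with 1 transcript per gene. The ratio of FHIT, 1.42, was 0.88 on the deposited scale. In FHIT the AUF1 and HuR siRNA libraries lay below PDL 15 and the control library above it.

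**Figure D1:**
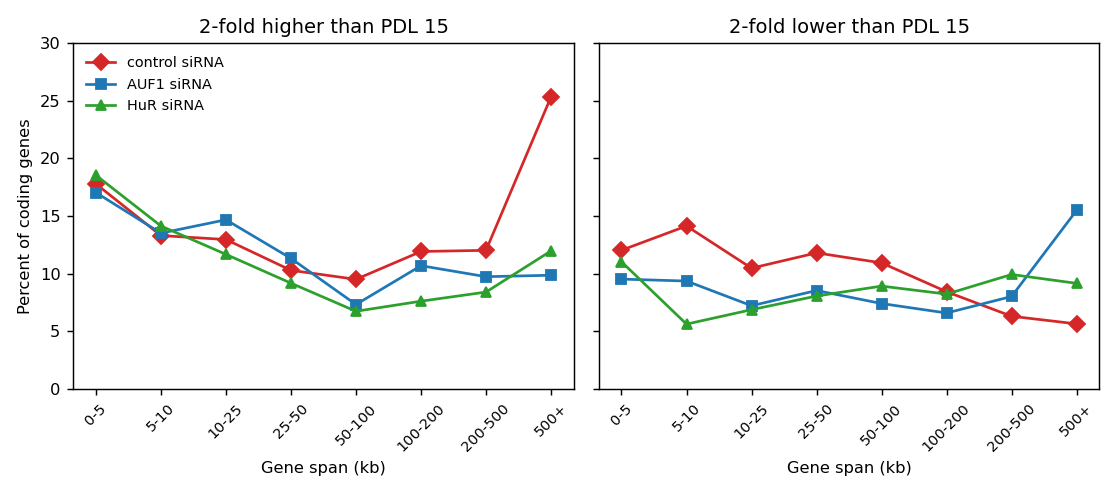
Percent of coding genes that were 2-fold higher (left) or lower (right) than PDL 15, by the genomic span of the gene in kb, for each transfected library. The 3 libraries lie close together on the left up to 100 kb, and at 500 kb and more control siRNA is at 25.4%, against 9.86% and 12%. Some of these long genes passed the filter only through the control library.

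Control-only lower genes included abundant cytoplasmic mRNAs. LGALS1, the gene of galectin-1, a secreted lectin (hg19 chromosome 22, 38071615 to 38075813), had an FPKM of 1524 at PDL 15, 188 with control siRNA, 869 with AUF1 siRNA, 975 with HuR siRNA and 721 at PDL 55. The authors' bounds were 164 to 212 with control siRNA and 1494 to 1555 at PDL 15. CCT6A, a subunit of the TRiC chaperonin, had 135, 30.4, 114 and 128 in the 4 libraries at PDL 15, and a control ratio of -0.84 with 1 transcript per gene, and PHB, the mitochondrial prohibitin, had 164, 29.5, 122 and 128. IGF2BP3, an mRNA-binding protein, had 92.1, 9.50, 134 and 98.4, a control ratio of -2.61 that was -0.78 without LOWDATA transcripts and -1.16 with assembled ones. In these 3 the AUF1 and HuR siRNA libraries stayed near PDL 15. CD248, the fibroblast surface protein endosialin, had 61.6, 16.5, 221 and 288, so that the transfected libraries fell on opposite sides of PDL 15, and it has no value without LOWDATA transcripts.

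ICAM1, an adhesion molecule for white blood cells, had 19.5 at PDL 15, 0.607 with control siRNA, 13.0 with AUF1 siRNA and 9.19 with HuR siRNA. USP22, a histone deubiquitinase, had 67.8, 4.72, 49.3 and 28.3, and FBLN2, a fibulin, had 13.4, 0.400, 7.87 and 5.41. These 3 were at least 2-fold below PDL 15 under all 3 ways of summing, but they were not at least 2-fold below both knockdown libraries under each. ABL1 and RNF19A, a tyrosine kinase and a ubiquitin ligase, had log2 ratios of -2.52 and -2.48, which became 0.59 and -0.58 by length. Of 34 contractile and cytoskeletal genes, 10 were lower and 2 higher with control siRNA, against 11.2% and 12.1% of all genes tested. Of these, 4 and 1 were firm, against 5.61% and 7.06% of all genes. The list's median was -0.47, and -0.15 with assembled transcripts, against 0.22 with AUF1 siRNA and -0.06 with HuR siRNA. MYL12A, a myosin light chain, had 117, 21.6, 58.3 and 103, and CNN3, an actin-binding calponin, had 303, 63.6, 112 and 143. PXN, the gene of paxillin, a focal adhesion adaptor, was shared and higher, at 44.9, 104, 118 and 105.

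Double-stranded RNA in the cytoplasm is known to switch on interferon and its target genes, so these were read as a list of their own. Of 50 interferon-stimulated genes, 12 passed the filter, which leaves most of the list unmeasured. With control siRNA 2 of the 12 were higher and 3 lower, against 12.1% and 11.2% of all genes tested, and the median was -0.10, against 0 with AUF1 siRNA and -0.13 with HuR siRNA. The 2 higher members were HLA-C, which was listed at 0 at PDL 15 and at 24.9, 35.2 and 17.0 in the control, AUF1 and HuR siRNA libraries, and IFI6, a mitochondrial protein induced by interferon, with 1.87 at PDL 15 and 4.48, 2.89 and 2.94. HLA genes are polymorphic and near-identical, and no fold is given. DDX58, the gene of the RNA sensor RIG-I, had 8.95 at PDL 15 and 2.18 with control siRNA, 11.3 with AUF1 siRNA and 8.33 with HuR siRNA. With 1 transcript per gene the ratios of IFI6 and DDX58 turned from 1.47 and -1.11 to -0.90 and 0.32. With assembled transcripts DDX58 was at -0.82, and on the deposited scale IFI6 was at 0.93. Among 17 measured sensors of double-stranded RNA and genes of RNA interference, 5 were higher and 2 lower, against 12.1% and 11.2% of all genes tested. The 1 firm member, against 7.06% of all genes firm and higher, was TICAM1, an adaptor of a double-stranded RNA receptor. TICAM1 had 4.25 at PDL 15 and 8.44, 5.20 and 6.43 in the control, AUF1 and HuR siRNA libraries. Its ratio of 1.39 was 0.85 on the deposited scale and 0.95 with a pseudocount of 5. The list's median was 0.51, which turns to -0.028 on the deposited scale.

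Genes often used as references differed in the deposited values. GAPDH had an FPKM of 1745 at PDL 15, 1079 with control siRNA, 3541 with AUF1 siRNA and 2530.3 with HuR siRNA. Its log2 ratio to PDL 15 was -0.15 with control siRNA and 1.27 with AUF1 siRNA. PPIA, a prolyl isomerase, had a ratio of -0.46, TBP, the TATA-binding protein, -0.02, and B2M, the light chain of class I HLA, -0.92. B2M had 48.3 at PDL 15 and 17.0, 16.3 and 28.6 in the control, AUF1 and HuR siRNA libraries. ACTB had transcripts with failed estimates and HPRT1 was below the filter, so neither has a ratio here.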

How the data were processed

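Total RNA of 5 WI-38 libraries, 1 per group, was extracted with Trizol and amplified by single-primer isothermal amplification, per the labels' protocols. TopHat2 2.0.6, Cufflinks 2.0.2, Cuffdiff and hg19 are named per the submitters' processing notes. The authors deposited, per the file headers, FPKM with 95% bounds, a coverage signal, a length and a status per transcript; the sources used here do not give read depth, strand or annotation release. Of 160485 annotated transcripts, 98.1% were assigned to a gene by identifier (GENCODE 29 names). FPKM was summed per gene over annotated transcripts, with a pseudocount of 1, a minimum mean of 5 and no FAIL transcript; bounds were summed likewise. Python 3.11.15 with pandas 2.3.3 was used, and the ratio and class steps were tested on simulated data. Named genes are the 8 with the largest ratio in each direction of each class (intervals apart, 2-fold also with assembled transcripts and without LOWDATA ones), 8 added genes, up to 4 leading members per list and direction, and firm genes chosen after their values were seen. Members and all 30 lists were chosen with earlier results of these data known. Leaving out short and small RNA genes, the length-weighted sums and the firm condition were chosen after seeing the data. Some genes that the rule names are not reported here.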

Additional observations from a re-analysis of the deposited data

Results flagged for a closer look

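The 123 small RNA genes and genes whose longest annotated transcript was under 200 nt were outside the comparisons above, because their length is close to that of a sequenced fragment, where FPKM is poorly defined. They drew attention because 49.6% of them (61 genes) were at least 2-fold higher with control siRNA than at PDL 15, against 12.1% of genes tested. A further 19.5% (24 genes) were lower, against 11.2% of genes tested. Their median log2 ratio was 0.99 with control siRNA, 0.13 with AUF1 siRNA and 0.07 with HuR siRNA. In the latter 2 libraries 22 and 14 of the 123 were higher, against 11.2% and 9.72% of genes tested. The same control library held 73.9% of its coverage times length in assembled transcripts under 100 nt. The cause was not tested.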

How the results depend on the processing

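No paired analysis was possible because each group has 1 library. Many named genes were chosen because they held with assembled transcripts, by length or without LOWDATA transcripts. Their counts under those settings were thus largely fixed by the choice. Of all 868 higher and 800 lower genes, 621 and 505 held with assembled transcripts, and 669 and 626 by length. Of 92 named genes called at 2-fold, 91 stayed so with assembled transcripts added, 88 with length-weighted sums, 82 on the deposited scale, 82 with 1 transcript per gene, 79 with a pseudocount of 5 and 78 of the 83 with a value without LOWDATA transcripts; the causes below were not tested. On the deposited scale the counts were 415 higher, 1886 lower, 167 and 264 shared, and 116 and 570 control-only, and the list medians were -0.028 for double-stranded RNA sensors, 0.048 for immediate early genes, -0.14 for mitosis, 0.39 for histones, -1.36 for ribosomal proteins, -0.93 for translation factors, -0.45 for glycolysis, -1.02 for matrix, -1.01 for contractile genes, -0.22 for secreted factors, -0.53 for long noncoding RNAs and -2.04 for fibroblast markers. With equal totals they were 420 higher, 1811 lower, and 107 and 702 control-only, with medians of -0.0073, 0.069, -0.12, 0.41, -1.34, -0.90, -0.42, -0.996, -0.99, -0.20, -0.51 and -2.02 in the same order of lists. With no filter, where most genes are at or near 0, they were 1783 higher, 3027 lower, 482 shared lower, and 940 and 868 control-only, with medians of -0.18 for double-stranded RNA sensors, 0.043 for immediate early genes, 0.40 for histones, -1.34 for ribosomal proteins, -0.84 for translation factors, -0.37 for glycolysis, -1.03 for matrix, -1.01 for contractile genes, -0.093 for secreted factors, -0.44 for long noncoding RNAs and -2.10 for fibroblast markers. A minimum mean of 1 gave 1756 higher, 1479 lower, 233 shared lower, and 578 and 537 control-only with a fibroblast median of -1.69, and a minimum of 10 gave 553, 515, 128 and 182 with a median of 1.16 for immediate early genes. A pseudocount of 5 gave 525 higher, 150 shared higher and 153 control-only lower with a fibroblast median of -1.07. With assembled transcripts 158 genes were control-only lower and the contractile and fibroblast medians were -0.15 and -0.58. Without LOWDATA transcripts 457 were control-only lower, the fibroblast median was -0.97, 9 named genes had no value, and CDCA8 (-1.74) and PTTG1 (-2.81) turned direction. With 1 transcript per gene 1268 were lower and 718 control-only lower, the matrix, fibroblast and glycolysis medians were -0.70, -1.28 and 0.52, and SERPINB2 (-0.39), CDCA8 (-1.64), IFI6 (-0.90) and DDX58 (0.32) turned direction. ABL1 turned direction by length (0.59). The control library had lower coverage than the others, and the part of this in its values near the filter was not tested.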
